A study of Mus musculus with 18 samples.

Results

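The 10 genes described here sense oxygen or respond to its lack: the hypoxia-inducible factor (HIF) subunits Hif1a, Epas1 and Arnt, the oxygen sensors Egln1, Egln2 and Egln3, the HIF-degrading factor Vhl, and the HIF-responsive genes Adm, Bnip3 and Ddit4. They were chosen by gene symbol, and all 10 were found in both tables, out of 18194 genes listed in at least 1 of them. RNA was sequenced from endothelial cells, which line blood vessels and the heart chambers, of adult male mice under resting conditions. Of the heart, 12 libraries came from wild-type mice, 3 for each of the regions Apex, LV, VS and OR. Of the liver, 6 libraries came from mice carrying Ki67-CrexER, Cdh5-DreER and R26-RL-tdT, with 3 libraries for the tdTomato-positive endothelium and 3 for the tdTomato-negative endothelium. In these animals 1 recombinase is tied by its name to the proliferation gene Mki67 and the other to the endothelial gene Cdh5, and tdTomato is the red reporter. The labels give homeostasis as the condition of every group and name no exposure to low oxygen. They do not say which libraries came from the same animal, so p-values measure the spread between these libraries only.

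HIF is a pair of proteins, an oxygen-regulated alpha subunit and the constant partner ARNT. When oxygen is plentiful, the prolyl hydroxylases encoded by the Egln genes mark the alpha subunit, VHL binds the marked protein, and the proteasome destroys it. When oxygen is short, the alpha subunit escapes, pairs with ARNT and binds a short core motif near its target genes. Hif1a encodes the alpha subunit found in most cells, and Epas1 encodes HIF-2 alpha, which is abundant in endothelium. This control acts mainly on protein, so the RNA levels below are levels of the parts and of the responses and do not measure how much HIF was active.

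The promoters of the 3 HIF-responsive members and of Egln3, which is itself a HIF target, are shown because Egln3 and Ddit4 gave the largest fold differences of the 10 in the liver, and Adm, Bnip3 and Egln3 were among those that differed most between heart regions. Each runs 5′ to 3′ on the gene's own strand, from 250 bases before to 50 bases after the start site, in RefSeq's annotation of GRCm38.p6. Capitals mark the HIF cores ACGTG and GCGTG on either strand, written as CACGT and CACGC where the core is on the opposite strand, and a CACGTG holds the first core on both strands. The windows are chr12:54203825-54204124 on the minus strand for Egln3, chr7:110627407-110627706 on the plus strand for Adm, chr7:138909457-138909756 on the minus strand for Bnip3, and chr10:59951721-59952020 on the minus strand for Ddit4.
Egln3: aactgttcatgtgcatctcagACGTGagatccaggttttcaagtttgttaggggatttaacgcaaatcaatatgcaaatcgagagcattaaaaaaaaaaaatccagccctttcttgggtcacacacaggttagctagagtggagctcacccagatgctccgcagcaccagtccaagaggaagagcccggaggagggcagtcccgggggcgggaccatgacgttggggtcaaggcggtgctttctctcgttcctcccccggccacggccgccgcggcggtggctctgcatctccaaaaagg
Adm: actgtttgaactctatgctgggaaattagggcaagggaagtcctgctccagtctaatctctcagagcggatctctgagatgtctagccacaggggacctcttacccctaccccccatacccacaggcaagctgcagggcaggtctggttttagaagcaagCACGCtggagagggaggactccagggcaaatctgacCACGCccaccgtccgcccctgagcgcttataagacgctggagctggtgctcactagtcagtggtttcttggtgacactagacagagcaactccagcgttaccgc
Bnip3: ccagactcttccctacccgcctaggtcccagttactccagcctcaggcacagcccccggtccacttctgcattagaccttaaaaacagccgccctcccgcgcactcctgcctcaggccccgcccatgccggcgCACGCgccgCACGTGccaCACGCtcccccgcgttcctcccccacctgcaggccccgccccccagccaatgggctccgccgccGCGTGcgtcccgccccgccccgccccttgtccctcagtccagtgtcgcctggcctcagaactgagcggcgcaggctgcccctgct
Ddit4: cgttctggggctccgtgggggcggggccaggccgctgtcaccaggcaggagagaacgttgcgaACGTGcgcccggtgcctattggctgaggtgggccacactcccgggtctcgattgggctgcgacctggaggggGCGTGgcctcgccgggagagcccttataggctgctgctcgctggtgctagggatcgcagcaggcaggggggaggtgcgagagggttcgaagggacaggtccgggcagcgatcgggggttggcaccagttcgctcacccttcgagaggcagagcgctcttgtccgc

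The Egln3 window held 1 core, an ACGTG whose first base lay at -229 from the start site. The Adm window held 2 cores, at -90 and -54, both GCGTG on the opposite strand. In the Bnip3 window 5 matches were counted, 2 of them from 1 shared CACGTG. The Ddit4 window held 2 cores, an ACGTG at -187 and a GCGTG at -115. Of the other members with a window, Hif1a held 3 matches, Arnt 1, Egln1 2 and Vhl 0, and the first of the Egln2 windows held 6. A core was present in 43.8% of all 32851 promoter windows of the same length, and 20.6% of them held at least 2 matches, so its presence here is a description and not a sign of HIF binding.

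The label endothelial was checked against marker genes. All 8 endothelial markers checked were detected in every library, at a summed level of 5580 to 7656 TPM in the heart, 5105 to 5316 TPM in tdTomato-positive liver cells and 4013 to 4818 TPM in tdTomato-negative liver cells. In the heart, 8 pericyte and smooth muscle markers summed to 446.5 to 1205 TPM. There 8 fibroblast and stellate cell markers summed to 113.9 to 542.5 TPM, with Lrat at 0 in some libraries. The part of these transcripts in the heart values was not tested. Total counts per library ran between 21590400 and 27720154 in the heart and between 23715769 and 26538590 in the liver. VS library 1 stood apart from the other VS libraries: its 10 cardiomyocyte markers summed to 1341 TPM, against 4455 and 2815 TPM in VS libraries 2 and 3. tdTomato-negative library 3 also stood apart: its 8 macrophage and Kupffer cell markers summed to 3473 TPM, against 34.1 and 61.4 TPM in tdTomato-negative libraries 1 and 2, with 1168, 1072 and 596.6 TPM in the tdTomato-positive libraries. Calls of members that rest on these libraries are given with and without them below.

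Epas1 and Ddit4 were the most abundant of the 10 transcripts by length-scaled level, and Epas1 had the highest median over all libraries of each organ. The lowest, median and highest values of Epas1 were 344.9, 558.1 and 931 TPM over the heart libraries and 166.8, 199.8 and 303.9 TPM over the liver libraries. By its median it ranked 304 among the 17513 genes of the heart table and 828 among the 17242 of the liver table. Ddit4, an inhibitor of the growth-promoting kinase complex mTORC1, came next, with 293.2, 410.2 and 554.6 TPM in the heart and 83.8, 168.8 and 486.3 TPM in the liver. The ranges of Epas1 and Ddit4 overlapped in the heart. In the liver their order differed by group: Ddit4 had 83.8 to 152.6 TPM and Epas1 192 to 202 TPM in tdTomato-positive cells, while Ddit4 had 486.3, 439.9 and 185 TPM and Epas1 303.9, 213.5 and 166.8 TPM in tdTomato-negative libraries 1, 2 and 3. Ddit4 was thus below Epas1 in each tdTomato-positive library and above it in each tdTomato-negative one. The organs come from separate tables and from mice of different genotype, so their levels are placed side by side and were not tested.

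Below that pair, the heart levels fell into bands. Egln2, Adm and Bnip3 had medians of 100, 99.6 and 74.5 TPM with overlapping ranges, and Hif1a, Arnt and Egln1 had medians of 34.9, 31.7 and 28.3 TPM, also overlapping. Vhl followed at a median of 17.4 TPM, and its highest library, at 27.0 TPM, passed the lowest Egln1 library, at 25.8 TPM. Egln3 was lowest, at 2.45 to 7.82 TPM, below every library of the other members. By the median over all 6 liver libraries the order was Epas1, Ddit4, Egln2, Adm, Bnip3, Hif1a, Arnt, Vhl, Egln1 and Egln3. There Ddit4 reached down to the range of Egln2, and Bnip3, Hif1a and Arnt overlapped, with medians of 30.5, 29.1 and 25.3 TPM, while each of Adm, Vhl and Egln1 lay clear of its neighbours.

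**Figure D1:**
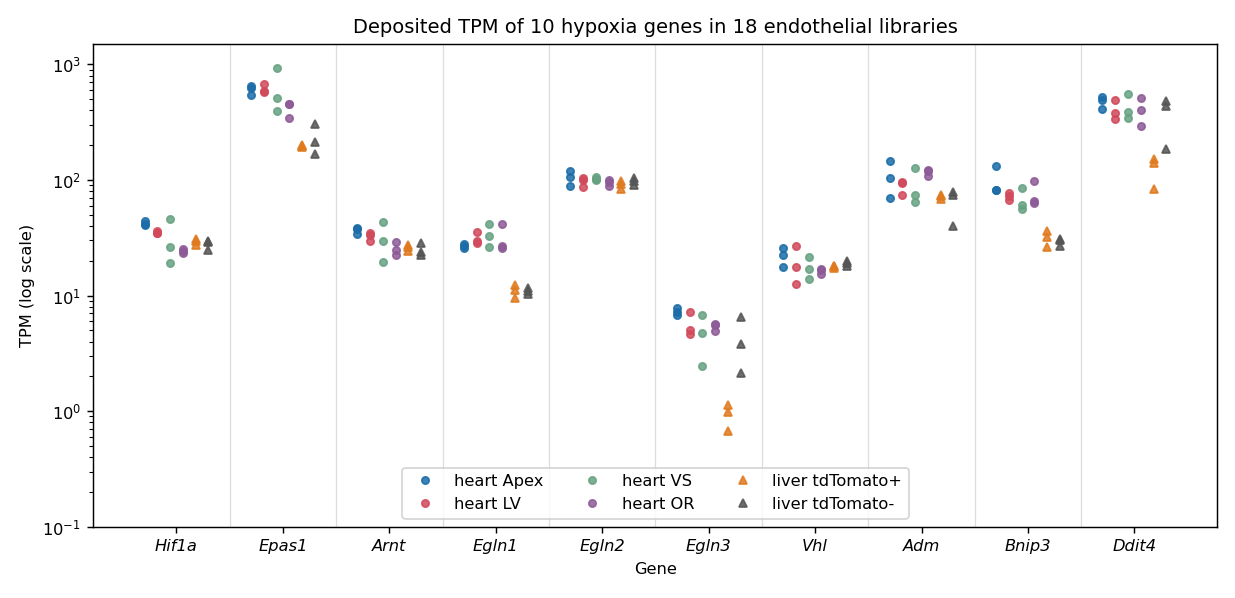
Deposited TPM of each gene (log axis) in every library, with circles for the 4 heart regions and triangles for tdTomato-positive and tdTomato-negative liver cells. Epas1 reaches 931 TPM in a VS library, and Egln3 reaches its low of 0.68 TPM in a tdTomato-positive library.

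The alpha subunit transcripts were in unequal supply. The level of Epas1 was 12.95 to 20.9 times that of Hif1a in heart libraries, 6.53 to 7.16 times in tdTomato-positive and 6.72 to 10.6 times in tdTomato-negative liver libraries, in TPM. Egln2 made up most of the transcripts of the 3 hydroxylases: 68.0% to 78.2% of their summed TPM in the heart and 85.3% to 90.6% in the liver. The share of Egln1, whose product is regarded as the main HIF hydroxylase at normal oxygen, was 17.1% to 28.6% in the heart and 8.81% to 12.6% in the liver. Egln3 gave 1.92% to 6.37% in the heart, 0.624% to 1.17% in tdTomato-positive and 1.81% to 5.67% in tdTomato-negative liver cells.

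The members differed in how steady they were over the libraries. The coefficient of variation of depth-scaled counts (CPM, corrected between libraries by edgeR's TMM factors) was 11.8% for Egln2, 12.9% for Arnt and 14.5% for Epas1 in the heart, where the median of all genes tested was 19.6%. Adm varied most in the heart, at 28.2%, followed by Egln1 at 22.6% and Bnip3 at 22.5%. In the liver Vhl varied least, at 4.84%, and Arnt followed at 6.4%. Egln3 and Ddit4 varied most there, at 90.4% and 70.3%, against a median of 16.7% over all genes tested.

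The heart comparison asks whether endothelium of the 4 regions differs in these genes. None of the 10 passed an adjusted p of 0.05 over the 4 regions in edgeR's quasi-likelihood test, and the same held in each of the 6 pairs of regions. That was the outcome for the whole table: 0% of the 13542 genes tested (0 genes) passed over the 4 regions, 1084 were under 0.05 before adjustment, 87 were called by DESeq2 and 2776 by limma's voom with sample quality weights. Of the members, Hif1a had the smallest p over the regions (0.00581, adjusted p = 0.623 in edgeR), at rank 114 of all genes tested. In the pairs, 1 member had an unadjusted p under 0.05 for Apex against LV (5.38% of all genes), 3 for Apex against VS (7.47%), 2 for Apex against OR (12.1%), 0 for LV against VS (2.91%), 2 for LV against OR (11.5%) and 1 for VS against OR (7.03%). The highest adjusted p of the 10 over the regions was 0.887, for Ddit4. Differences between regions are therefore given below as measured values that did not pass, and in bulk libraries fewer cells of a type and less RNA per cell cannot be told apart.

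Hif1a was highest in Apex. Its CPM were 101.4, 94.4 and 105.1 in Apex, 79.8, 89.2 and 86.4 CPM in LV, 87.3, 57.75 and 71.65 CPM in VS, and 63.5, 71.6 and 69.9 CPM in OR. In CPM the 3 Apex libraries lay above all 9 libraries of the other regions, and the LV libraries lay above those of OR. In TPM, which carry no TMM correction, VS library 1 had the highest Hif1a of the heart, at 45.58, against 40.69 to 44.34 in Apex. The Apex mean was 100.3 ± 5.42 CPM and that of OR 68.3 ± 4.27 CPM (SD, n = 3 each), a log2 fold change of 0.55 ± 0.14 (SE), with an edgeR adjusted p of 0.376. Against VS the log2 fold change of Apex was 0.47 ± 0.14 (adjusted p = 0.664 in edgeR), and LV over OR gave 0.32 ± 0.14 (adjusted p = 0.431 in edgeR).

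The call on Hif1a turned on VS library 1 and on the tool. Without that library, edgeR gave an adjusted p of 0.00701 over the regions (0.00701 to 0.914 over the alternatives). Then Hif1a was called higher in Apex than in OR, at a log2 fold change of 0.57 and an edgeR adjusted p of 0.00955 (0.00783 to 0.774 over the alternatives), and higher in Apex than in VS, at 0.63 ± 0.12 and 0.00451 (0.00451 to 0.997 over the alternatives). DESeq2 on all 12 libraries also called Apex over OR, with an adjusted p of 0.0467, as did voom, at 0.00783, and an edgeR fit on the 6 Apex and OR libraries alone, at 0.0133. Of all genes, 10.8% were called over the regions and 11.7% for Apex against VS without VS library 1. For Apex against OR, 6.25% of all genes were called without that library, 0.347% by DESeq2, 12.8% by voom and 7.30% in the fit on the pair alone. The neutrophil markers moved with Apex too: 6 of 7 were detected in each Apex library, summing to 49.99 to 61.9 TPM, against 15.6 to 18.4 TPM in LV, 15.6 to 17.4 TPM in VS and 0 to 22.1 TPM in OR, with Ly6g at 0 in every Apex library. Cardiomyocyte and erythroid markers lay the other way. The 10 cardiomyocyte markers all had a negative log2 fold change for Apex over OR (median -0.50) and Apex over VS (median -0.41), and summed to 2047 to 2375 TPM in Apex, against 1341 to 4455 TPM in VS and 2514 to 3470 TPM in OR. The 5 erythroid markers were also all negative, with medians of -0.83 for Apex over OR and -0.50 for Apex over VS, and summed to 6632 to 13750 TPM in Apex, against 6815 to 24929 TPM in VS and 16327 to 18556 TPM in OR. The part of these markers in the Hif1a values was not tested.

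Epas1 and Arnt gave flatter profiles. Epas1 had 1818, 1810 and 1689 CPM in Apex, 1906, 1839 and 1709 CPM in LV, 2226, 1481 and 1697 CPM in VS, and 1549, 1566 and 1228 CPM in OR. The Apex and LV libraries lay above those of OR, VS library 1 was the highest of the 12, and OR library 3 and VS library 2 were the lowest. Arnt had 86.7, 87.0 and 86.0 CPM in Apex, 76.4, 88.8 and 70.6 CPM in LV, 82.7, 58.7 and 79.7 CPM in VS, and 68.0, 81.5 and 64.0 CPM in OR. In CPM its Apex libraries lay above those of VS and OR and overlapped those of LV. In TPM, VS library 1 had 43.39 for Arnt, above the Apex libraries at 34.33 to 38.21. In edgeR the adjusted p over the regions was 0.665 for Epas1 and 0.695 for Arnt.

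**Figure D2:**
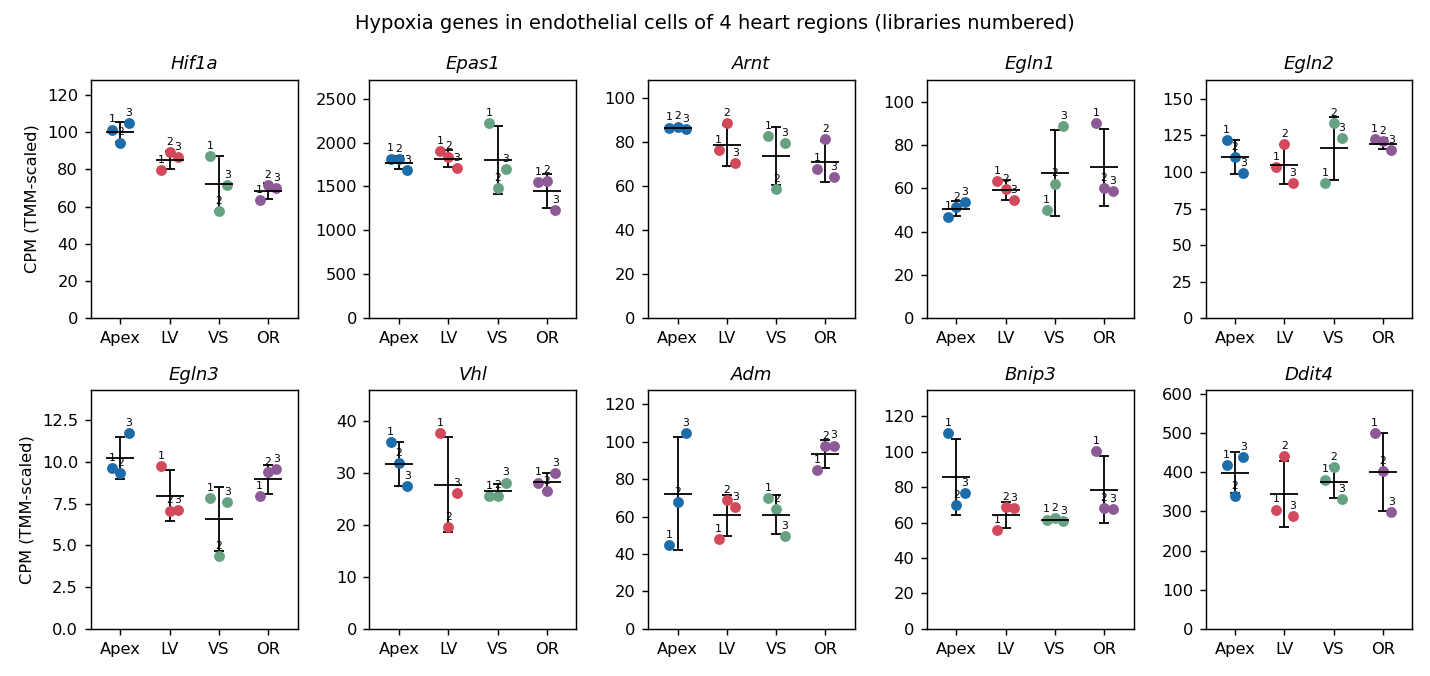
TMM-scaled CPM of each gene in the 12 heart libraries by region (points, numbered by library), with the mean and SD of 3 libraries (bars). Hif1a lies at 94.4 to 105.1 CPM in Apex and at or below 89.2 CPM elsewhere, and Adm lies at 84.8 to 97.95 CPM in OR.

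Among the sensors, Egln1 was lowest in Apex. It had 47.0, 51.5 and 53.6 CPM in Apex, 63.4, 59.8 and 54.5 CPM in LV, 50.1, 62.3 and 88.9 CPM in VS, and 90.4, 60.2 and 58.9 CPM in OR. In CPM the Apex libraries lay below those of LV and OR, and overlapped VS through VS library 1. In TPM they also overlapped OR, at 26.04 to 27.94 in Apex, against 27.08 and 25.81 in OR libraries 2 and 3. Apex over OR gave a log2 fold change of -0.46 ± 0.20 (adjusted p = 0.398 in edgeR). Without VS library 1, Egln1 was called lower in Apex than in VS, at a log2 fold change of -0.58 and an edgeR adjusted p of 0.0494, beside 11.7% of all genes called in that pair. The adjusted p was 0.668 in edgeR with all libraries and 0.0139 with voom, which called 13.1% of genes. This pair was added for Egln1 after its values were seen.

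Egln3, a hydroxylase that HIF itself induces, had the lowest counts of the set, 106 to 309 per heart library. Its CPM were 9.65, 9.35 and 11.7 in Apex, 9.75, 7.09 and 7.13 CPM in LV, 7.82, 4.36 and 7.6 CPM in VS, and 7.95, 9.39 and 9.55 CPM in OR. In CPM the VS libraries lay below both those of Apex and those of OR. In TPM they overlapped both through VS library 1, at 6.81, against 6.8 to 7.82 in Apex and 4.9 to 5.66 in OR. Apex over VS gave a log2 fold change of 0.63 ± 0.24, a 1.55-fold difference (adjusted p = 0.664 in edgeR). Egln2, the hydroxylase that was most abundant here, lay between 92.3 and 133.7 CPM with all regions overlapping, and Vhl, which recognises hydroxylated HIF, between 19.5 and 37.6 CPM, also overlapping. Their edgeR adjusted p over the regions was 0.857 and 0.848.

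Of the HIF-responsive members, Adm had its highest mean and smallest spread in OR, at 93.5 ± 7.54 CPM (SD, n = 3). Adm, the vasodilator peptide adrenomedullin, had 44.6, 67.9 and 104.5 CPM in Apex, 47.95, 68.8 and 65.3 CPM in LV, 69.7, 64.0 and 49.7 CPM in VS, and 84.8, 97.7 and 97.95 CPM in OR. In CPM the OR libraries lay above every LV and VS library, while Apex spanned the whole range. In TPM, VS library 1, at 126.4, lay above the OR libraries, at 108.4 to 123.1. LV over OR gave a log2 fold change of -0.62 ± 0.24 (adjusted p = 0.416 in edgeR), and VS over OR gave -0.61 ± 0.24 (adjusted p = 0.699 in edgeR). In a fit on the 6 LV and OR libraries alone, the value for LV over OR was -0.62 with an edgeR adjusted p of 0.0405 (0.0405 to 0.807 over the alternatives), and 3.53% of genes were called in that fit. The 10 immediate early genes, described with the liver below, all had negative log2 fold changes for LV, VS and Apex over OR. The medians were -0.20, -0.25 and -0.32, and none passed in edgeR. Their sums overlapped: 16211 to 39826 TPM in Apex, 22610 to 36793 in LV, 23241 to 43231 in VS and 22464 to 40598 in OR. The part of these genes in the Adm values was not tested.

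Bnip3, a mitochondrial protein of mitophagy and cell death, had 110.4, 70.0 and 76.9 CPM in Apex, 55.9, 68.6 and 68.2 CPM in LV, 61.8, 62.7 and 60.8 CPM in VS, and 100.3, 68.3 and 67.55 CPM in OR. Apex library 1 and OR library 1 were the high ones, and in CPM the Apex libraries lay above those of LV and VS. In TPM, VS library 1, at 85.83, lay above Apex libraries 2 and 3, at 81.37 and 82.18. Apex over LV gave a log2 fold change of 0.42 ± 0.19 (adjusted p = 0.925 in edgeR), and Apex over VS gave 0.47 ± 0.19 (adjusted p = 0.664 in edgeR). Ddit4 had 417.3, 339.5 and 438.5 CPM in Apex, 304.5, 441.2 and 287.8 CPM in LV, 380.8, 412 and 331.6 CPM in VS, and 498.7, 402.6 and 298.9 CPM in OR. All 4 regions overlapped for Ddit4.

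Members whose groups did not overlap in CPM were set against the share of all genes with that property. Some of these separations did not hold in TPM, as given above. They were 3 of 10 for Apex against LV (16.2% of all genes), 4 of 10 for Apex against VS (10.6%), and 4 of 10 for Apex against OR (28.9%). LV against VS gave 0 of 10 (5.62%), LV against OR 3 of 10 (27.4%) and VS against OR 3 of 10 (11.4%). The differences of these counts from the background were not tested.

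**Figure D3:**
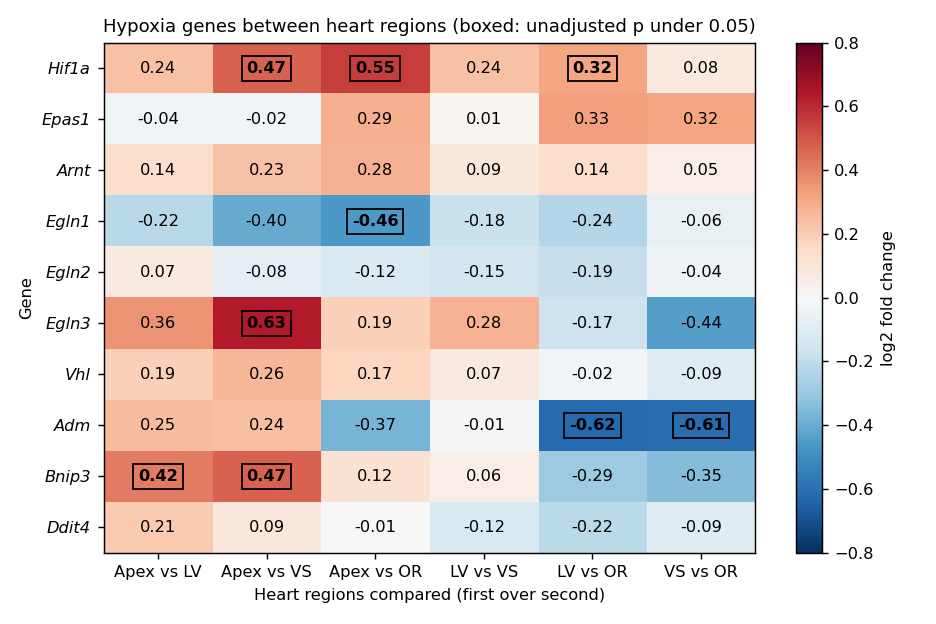
Log2 fold change of each gene (rows) for each of the 6 pairs of heart regions (columns, first region over the second), with boxes where the unadjusted edgeR p was under 0.05. The boxed values are those of Hif1a, Egln1, Egln3, Adm and Bnip3, and none had an adjusted p under 0.05.

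Other genes of the pathway were read from lists. None of the 14 HIF pathway regulators tested, 15 angiogenic, 14 metabolic and 16 other HIF targets, 5 genes of the adrenomedullin receptor system and 8 genes that restrain mTORC1 passed in any heart comparison in edgeR. For Apex over VS, 12 of the 15 angiogenic targets had a positive log2 fold change and the median was 0.17, beside -0.01 over all genes. LV over VS also gave 12 of 15, with a median of 0.10, beside 0.00 over all genes. LV over OR gave 10 of 15, with a median of 0.03, and VS over OR 7 of 15, with -0.03. These targets summed to 3163 TPM in VS library 1, against 1941 and 2193 TPM in VS libraries 2 and 3. The medians include VS library 1. For Apex over OR, 11 of the 15 were positive with a median of 0.10, and 10 of the 16 other targets were positive with a median of 0.16, beside 0.00 over all genes. In that comparison 6 of the 8 endothelial markers were positive too, with a median of 0.16, and Kdr and Tek are in both the endothelial and the angiogenic list. The cardiomyocyte and erythroid markers, given above, were lower in Apex, and their part in these medians was not tested. The metabolic targets, mostly enzymes of glycolysis, had medians of -0.05 for Apex over VS and -0.09 for Apex over OR.

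The listed gene with the smallest p over the regions was Pgf, placental growth factor of the VEGF family. Pgf had 40.0, 34.6 and 48.6 CPM in Apex, 25.6, 22.9 and 20.5 CPM in LV, 20.96, 21.95 and 22.2 CPM in VS, and 45.0, 40.5 and 29.8 CPM in OR. All Apex and OR libraries lay above all LV and VS libraries, and the edgeR adjusted p over the regions was 0.186. Calcrl, the receptor that binds the adrenomedullin peptide together with Ramp proteins, had 154.9, 140.7 and 141.6 CPM in Apex, 120.3, 108.7 and 120.7 CPM in LV, 126.6, 64.0 and 115.1 CPM in VS, and 94.15, 84.3 and 85.25 CPM in OR. The receptor had its lowest mean in OR, where its ligand Adm had its highest, and only VS library 2 lay below the OR libraries, with an edgeR adjusted p over the regions of 0.623.

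The liver comparison asks how tdTomato-positive endothelial cells differ from tdTomato-negative ones in these genes. Egln3 and Ddit4 were lower in every tdTomato-positive library than in any tdTomato-negative one, which makes 2 of 10 members with groups that did not overlap, beside 20.6% of all genes. No member passed in edgeR on all 6 libraries, where 0% of the 13115 genes tested (0 genes) passed, 1872 (14.3%) were under 0.05 before adjustment, 683 were called by DESeq2 and 2713 by voom. Both Egln3 and Ddit4 were called lower by DESeq2, by voom and by edgeR without tdTomato-negative library 3.

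Egln3 had 1.57, 1.12 and 1.79 CPM in tdTomato-positive cells, against 6.15, 10.6 and 3.24 CPM in tdTomato-negative cells. These rest on 39, 29 and 48 counts in the tdTomato-positive and 163, 259 and 83 counts in the tdTomato-negative libraries. The lowest tdTomato-negative library was number 3. The means were 1.49 ± 0.34 CPM in tdTomato-positive and 6.67 ± 3.71 CPM in tdTomato-negative cells (SD, n = 3 each). The log2 fold change was -2.15 ± 0.47, a 4.45-fold lower level, with an edgeR adjusted p of 0.276.

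Ddit4 had 79.5, 138.6 and 143.2 CPM in tdTomato-positive cells, against 473.4, 430.3 and 168.7 CPM in tdTomato-negative cells. Again tdTomato-negative library 3 was the lowest of its group, close to the highest tdTomato-positive libraries. The means were 120.4 ± 35.5 CPM in tdTomato-positive and 357.5 ± 164.9 CPM in tdTomato-negative cells (SD, n = 3 each). The log2 fold change was -1.57 ± 0.44, a 2.97-fold lower level, with an edgeR adjusted p of 0.276.

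Without tdTomato-negative library 3, Egln3 fell by 2.49 on the log2 scale in tdTomato-positive cells (SE 0.32, 5.63-fold) with an edgeR adjusted p of 0.00114 (0.00114 to 0.654 over the alternatives). Ddit4 fell by 1.92 on the log2 scale (SE 0.26, 3.78-fold) with an edgeR adjusted p of 0.00535 (0.00357 to 0.654 over the alternatives). In that fit 31.5% of all genes were called, 2065 higher and 2165 lower. DESeq2 on all 6 libraries gave adjusted p of 0.0023 for Egln3 and 0.00357 for Ddit4, with 5.21% of genes called, and voom gave 0.00887 and 0.0132, with 20.7% called. The direction was the same for both genes in all 12 alternatives.

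**Figure D4:**
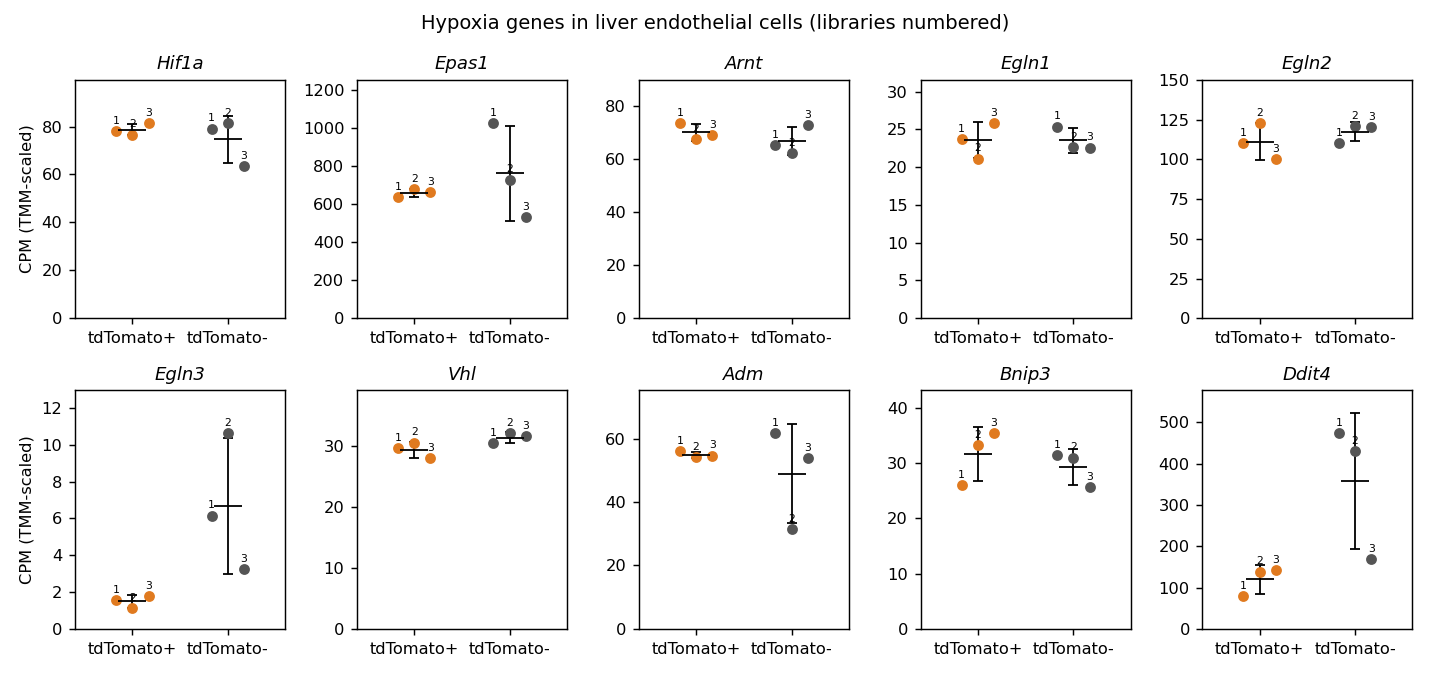
TMM-scaled CPM of each gene in the 6 liver libraries (points, numbered by library) of tdTomato-positive and tdTomato-negative cells, with the mean and SD of 3 libraries (bars). Egln3 and Ddit4 separate the groups, with tdTomato-negative library 3 nearest to the tdTomato-positive libraries for both.

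The groups overlapped for each of the HIF subunits on all 6 libraries. Hif1a had 78.2, 76.6 and 81.3 CPM in tdTomato-positive cells, against 79.1, 81.6 and 63.4 CPM in tdTomato-negative cells. Epas1 had 635.7, 678.3 and 661.6 CPM in tdTomato-positive cells, against 1028, 729.2 and 530.6 CPM in tdTomato-negative cells. The overlap for Epas1 rests on tdTomato-negative library 3, the lowest of the 6. Arnt had 73.8, 67.45 and 69.1 CPM in tdTomato-positive cells, against 65.3, 62.3 and 72.8 CPM in tdTomato-negative cells. The log2 fold changes were 0.08 ± 0.12 for Hif1a, -0.21 ± 0.24 for Epas1 and 0.07 ± 0.09 for Arnt, with edgeR adjusted p of 0.797, 0.712 and 0.77. Without tdTomato-negative library 3, every tdTomato-positive library lay below the other tdTomato-negative ones for Epas1 and above them for Arnt. The share of all genes that separate in this reduced set was not measured, and 31.5% of all genes were called in that edgeR fit. The log2 fold change was then -0.43 for Epas1, with an edgeR adjusted p of 0.0534 (0.0534 to 0.931 over the alternatives), 0.12 for Arnt, with 0.305 (0.305 to 0.986), and -0.04 for Hif1a, with 0.73 (0.73 to 0.953). Without tdTomato-negative library 1, the highest for Epas1, the log2 fold change of Epas1 was 0.06 (edgeR adjusted p = 0.931).

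The other sensors and Vhl gave small differences as well. Egln1 had 23.7, 21.1 and 25.9 CPM in tdTomato-positive cells, against 25.4, 22.6 and 22.6 CPM in tdTomato-negative cells. Egln2 had 110.1, 123.1 and 99.99 CPM in tdTomato-positive cells, against 110.4, 121.0 and 120.5 CPM in tdTomato-negative cells. Vhl had 29.7, 30.5 and 27.97 CPM in tdTomato-positive cells, against 30.4, 32.1 and 31.7 CPM in tdTomato-negative cells. Their log2 fold changes were 0.00 ± 0.12, -0.08 ± 0.11 and -0.09 ± 0.09, so Egln3 was the hydroxylase whose level differed most between the groups.

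Adm and Bnip3 did not follow Ddit4. Adm had 56.0, 54.2 and 54.6 CPM in tdTomato-positive cells, against 61.6, 31.4 and 53.9 CPM in tdTomato-negative cells, with a log2 fold change of 0.17 ± 0.24 (adjusted p = 0.779 in edgeR). Bnip3 had 26.0, 33.3 and 35.4 CPM in tdTomato-positive cells, against 31.4, 31.0 and 25.6 CPM in tdTomato-negative cells, with a log2 fold change of 0.11 ± 0.15 (adjusted p = 0.777 in edgeR). Thus of the 3 HIF-responsive members only Ddit4 had groups that did not overlap in the liver, beside 20.6% of all genes. Their promoter windows, printed above, each held at least 1 HIF core, as did 43.8% of all promoter windows.

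**Figure D5:**
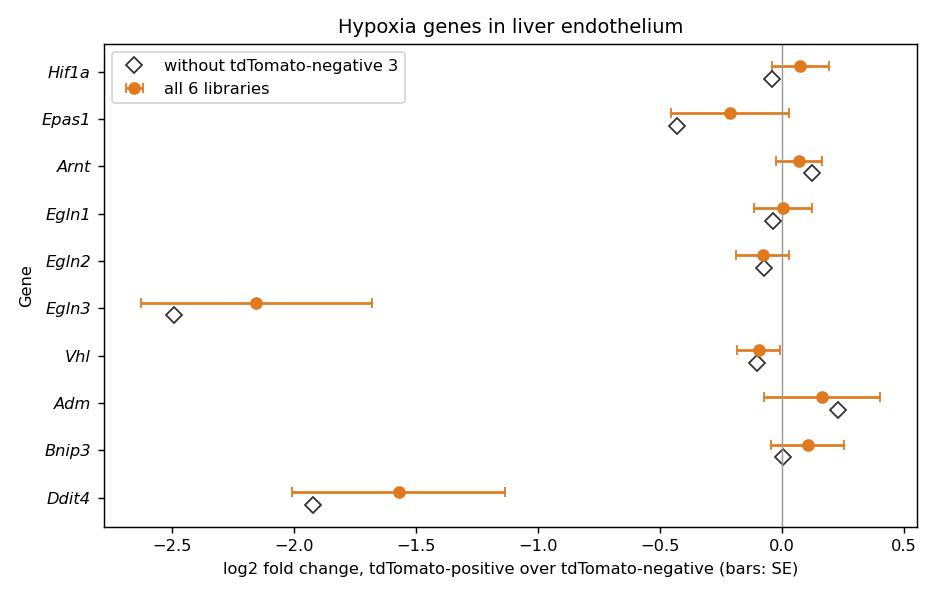
Log2 fold change of each gene in tdTomato-positive over tdTomato-negative liver endothelium from all 6 libraries (filled circles, bars are SE) and without tdTomato-negative library 3 (open diamonds). Egln3 and Ddit4 lie at -2.15 and -1.57 with all libraries, and the other members lie between -0.21 and 0.17.

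Listed pathway genes in the liver were also tested with edgeR, and none passed on all 6 libraries. The 15 metabolic HIF targets had a median log2 fold change of -0.27 with 14 negative, and the 13 angiogenic targets one of -0.84, beside 0.00 over all genes. The 16 other targets had a median of 0.04, the 13 regulators -0.16, the 8 mTORC1-restraining genes 0.14 and the 5 adrenomedullin receptor genes 0.20. Without tdTomato-negative library 3, where 31.5% of the 13414 genes tested were called (2065 higher and 2165 lower), of the angiogenic targets 3 rose and 6 fell of 15, of the metabolic targets 1 rose and 4 fell of 15, and of the other targets 3 rose and 4 fell of 16. Of the regulators 0 rose and 6 fell of 13, of the mTORC1-restraining genes 2 rose and 3 fell of 8, and of the adrenomedullin receptor genes none passed.

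Single genes of these lists resembled Egln3 and Ddit4 in part. Slc2a1, the glucose transporter GLUT1, had 12.05, 10.6 and 9.44 CPM in tdTomato-positive cells, against 32.8, 20.4 and 15.7 CPM in tdTomato-negative cells, a log2 fold change of -1.10 ± 0.28 (adjusted p = 0.276 in edgeR). Bhlhe40, a transcriptional repressor of the clock, had 28.9, 33.7 and 39.9 CPM in tdTomato-positive cells, against 221.9, 262.2 and 47.4 CPM in tdTomato-negative cells. Deptor, an mTOR inhibitor, had 6.53, 5.59 and 5.6 CPM in tdTomato-positive cells, against 14.0, 8.97 and 9.94 CPM in tdTomato-negative cells. Others ran the opposite way. A positive log2 fold change was found in 1 of 15 metabolic, 4 of 13 angiogenic and 10 of 16 other HIF targets. The same held for 5 of 8 mTORC1-restraining genes. Pdk1, a kinase that holds pyruvate back from mitochondria and the metabolic target with a positive value, had 35.4, 33.9 and 31.3 CPM in tdTomato-positive cells, against 27.1, 21.5 and 27.5 CPM in tdTomato-negative cells. Kdr, the main VEGF receptor, had 2619, 2516 and 2507 CPM in tdTomato-positive cells, against 1889, 1097 and 1875 CPM in tdTomato-negative cells.

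Genes outside the HIF pathway moved with Egln3 and Ddit4. The 10 immediate early genes, which cells switch on within a short time of a stimulus, summed to 2699, 2192 and 2333 TPM in tdTomato-positive cells, against 18956, 13991 and 2804 TPM in tdTomato-negative cells, and their median log2 fold change was -2.52. The 8 glucocorticoid-responsive genes, a class to which Ddit4 also belongs, all had a negative log2 fold change, with a median of -0.60. Per1, a clock gene of that class, had 11.85, 14.3 and 13.4 CPM in tdTomato-positive cells, against 60.85, 35.0 and 24.7 CPM in tdTomato-negative cells, with a log2 fold change of -1.61 ± 0.33 (adjusted p = 0.276 in edgeR). Without tdTomato-negative library 3, all 10 immediate early genes and 4 of the 8 glucocorticoid-responsive genes fell in edgeR, beside 2165 of all 13414 genes tested. Their part in the Egln3 and Ddit4 values was not tested.

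Markers of other cell types differed between the liver libraries as well. The 8 hepatocyte markers summed to 348, 320.6 and 255.4 TPM in tdTomato-positive cells, against 736.8, 632.8 and 462.7 TPM in tdTomato-negative cells. The 8 pericyte and smooth muscle markers summed to 25.7, 19.0 and 19.2 TPM in tdTomato-positive cells, with Cspg4 or Myh11 at 0 in each library, against 62.2, 58.6 and 18.55 TPM in tdTomato-negative cells. The 5 erythroid markers summed to 19196, 26284 and 30850 TPM in tdTomato-positive cells, against 817.3, 957.2 and 14680 TPM in tdTomato-negative cells. The erythroid and macrophage markers were thus higher in tdTomato-negative library 3 than in the other tdTomato-negative libraries, and in library 3 Egln3 and Ddit4 were lowest of their group. Mki67, the gene to which the Cre allele is tied, averaged 0.39 CPM in tdTomato-positive and 1.59 CPM in tdTomato-negative cells (adjusted p = 0.276 in edgeR). The Mki67 values rest on 9 to 11 counts in tdTomato-positive and 35 to 51 counts in tdTomato-negative libraries. The part of these transcripts in the member values was not tested.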

How the data were processed

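Endothelial RNA from 12 heart and 6 liver libraries was copied from oligo(dT) primers, amplified by PCR and read as 100 bp pairs on an MGISEQ-2000RS, per the labels. The build is mm10 per the submitters' processing notes. The aligner, counting program, annotation and use of strand are not given in the sources used here. Per the file headers, the authors deposited expected counts and TPM for each library. All 36 value columns were matched to a library by name. The OR region is written OZ in the table columns.

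Expected counts (80.8% to 83.5% of heart and 80.3% to 80.8% of liver values exactly whole) were rounded and tested in R 4.3.3 with edgeR 4.0.16: default low-count filter, TMM scaling, robust quasi-likelihood F tests with 1 mean per group, and Benjamini-Hochberg adjustment over all genes tested, at a threshold of 0.05. The heart fit held 12 libraries and the liver fit 6. The SE of a fold change was taken from its F statistic (the absolute log2 value divided by the root of F). All 10 members passed the filter in both organs. TPM were used for gene levels, ratios within a library and sums of gene lists, also where libraries or groups are set side by side. They carry no TMM correction and were not tested. Alternatives were DESeq2 1.42.0, limma 3.58.1 voom with sample quality weights, RLE scaling, other filters, a replicate block, pair-only fits and leaving out each library. The workflow was tested on simulated data. Promoters were matched by gene identifier in RefSeq, GRCm38.p6, for 9 of 10 members.

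All members are named whatever their values. A log2 fold change between heart regions is given where the unadjusted p was under 0.05, and of other lists up to 4 genes of smallest p were open to naming. The members and lists were chosen with earlier results of these data known.

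In GENCODE, exons of Hif1a overlap an antisense gene, Gm15283, by 330 bases and a gene on its own strand, Gm49321, by 148 bases. Exons of Bnip3 overlap the antisense gene Gm45507 by 504 bases and those of Egln2 overlap Cyp2t4 by 11 bases. Reads from these stretches cannot be assigned with certainty. Counts of replicate pairs differed by more than sampling noise in every pair, so no library was counted as a duplicate.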

Additional observations from a re-analysis of the deposited data

How the results depend on the processing

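Of 471 recomputed member values, 17 newly passed the threshold and 11 changed sign. The other 443 did not pass in either fit and kept their direction, where they had one. Values over the 4 heart regions have no direction. No member passed in the main fit, so no call could be lost. On all libraries 0 members passed in edgeR in any comparison. DESeq2 called 1 member for Apex over OR (0.347% of all genes) and 2 in the liver (5.21%). Voom called 3 over the heart regions (20.5% of all genes), 2 for Apex over VS (13.1%), 1 for Apex over OR (12.8%) and 2 in the liver (20.7%), so its counts for Apex over OR and the liver were near the background. Fits on a pair alone called 1 for Apex over OR (7.30%) and 1 for LV over OR (3.53%). Leaving out 1 library called 0 to 1 members over the regions, 0 to 2 for Apex over VS, 0 to 1 for Apex over OR and 0 to 2 in the liver, the highest values without VS library 1 (10.8%, 11.7% and 6.25% of all genes) or tdTomato-negative library 3 (31.5%). The cause was not tested. Over all genes, leaving out 1 library called 0 to 1481 over the regions and 0 to 4230 in the liver. Those fits leave a group with 2 libraries.

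Among the log2 changes recomputed, those that changed sign were all in the liver. Heart pairs were recomputed only for members with an unadjusted edgeR p under 0.05. The signs of smaller heart differences were thus not checked. That of Egln1 was -0.0171 with DESeq2, -0.017 with RLE scaling, -0.00946 with a 1 CPM filter and -0.0523 with voom, and that of Hif1a was -0.00879 with voom. Leaving out 1 library gave -0.0604 to 0.085 for Egln1, -0.428 to 0.0646 for Epas1, -0.0868 to 0.366 for Adm and -0.0415 to 0.129 for Hif1a.

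Whether replicate numbers pair libraries could not be settled, since the labels do not name the animals. Deviations of same-numbered libraries correlated at -0.0572 to 0.235 in the heart, above 0.1 in 4 of 18 pairs. In the liver they correlated at -0.207 to -0.0103, above 0.1 in 0 of 3 pairs. Of the libraries, 3 of 12 in the heart and 0 of 6 in the liver correlated best with their own number. With a replicate block, 0 members were called in each comparison. Egln3 was then at -2.01 and Ddit4 at -1.49 in the liver (edgeR adjusted p = 0.496 for both, against 0.00114 to 0.654 and 0.00357 to 0.654 over the alternatives). Egln3 had 29 to 48 counts in tdTomato-positive libraries, and the size of difference detectable with 3 libraries a group was not measured.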

Other observations

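Over the 12 heart libraries, the genes whose log2 CPM ran most like a member's, of 9817 candidates, were listed for 4 members as a description. All points share library depth and cell makeup, and the closest of so many candidates is high by selection. For Epas1 these were Kansl1 (Pearson r 0.952 over 12 libraries) and Zfp318 (0.943). For Adm they were Srsf3 (0.958) and Ube2s (0.95), for Bnip3 Smad1 (0.945) and Slc1a1 (0.927), and for Ddit4 Per1 (0.922) and Sema6b (0.902).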
